A study of Rattus norvegicus with 8 samples.

Results

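The proteasome genes were followed in CA3 pyramidal neurons of the rat hippocampus after traumatic brain injury. Of the 41012 probes on the array, 50 carry a gene name that starts with Psma, Psmb, Psmc, Psmd or Psme and a digit. These probes name 42 of the 18365 genes named on the array. They fall into 7 α subunits and 7 standard β subunits of the core, 6 ATPases and 13 non-ATPases of the cap, 5 genes of the immunoproteasome and 2 other activators. The remaining 2 are Psma3l, a copy of Psma3, and Psmc3ip, which is no proteasome subunit but a partner of recombination proteins that shares the stem of the name.

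Neurons were captured by laser from frozen sections of male Sprague-Dawley rats and measured on 8 single-colour arrays, 2 for each of 4 groups. Naïve rats received no treatment, sham rats underwent sham injury, and the other rats received a moderate fluid percussion injury, with brains removed 24 h later. In injured rats, neurons that took up Fluoro-Jade, a dye that stains degenerating neurons, were taken as dying, and neighbouring neurons without the dye as surviving. According to the methods, each surviving or dying pool held about 600 neurons from several rats. All neurons of a pool were amplified together, so fewer neurons that express a gene and less of its RNA in each neuron cannot be told apart. Whether the 2 arrays of a group came from wholly separate rats is not stated in the labels, and p-values measure the spread between the arrays.

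The proteasome degrades proteins that carry chains of ubiquitin. Its barrel-shaped core is built from rings of α subunits, which form the gate, and rings of β subunits, which hold the cutting sites. Psmb6, Psmb7 and Psmb5 carry the caspase-like, the trypsin-like and the chymotrypsin-like site. The cap binds the core, recognises ubiquitin through subunits such as Psmd4, removes it and unfolds the protein with a ring of ATPases, Psmc1 to Psmc6. Under interferon signalling cells make Psmb9, Psmb10 and Psmb8, which replace Psmb6, Psmb7 and Psmb5 in newly built cores, and the activator subunits Psme1 and Psme2. This form, the immunoproteasome, is abundant in immune cells and is known for making peptides for antigen presentation. Healthy neurons are known to hold mostly the standard form.

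The promoter windows of the 3 standard catalytic subunits and their immunoproteasome counterparts are shown because the results turn on these pairs. Each window runs from 250 bases before the annotated start of the gene through the first 50 bases of the gene and was taken from RefSeq, build GRCr8. Of the 42 genes, 38 had a window. Capitals mark letters that match 1 of 4 motifs searched on both strands: GAAA followed after any 2 bases by another GAAA, the core of the interferon response element, TTCNNNGAA, the gamma-activated site, TGACNNNGC, the antioxidant response element, and CCAAT. The Psmb6 window lies at chr10:55737638-55737937 on the plus strand and that of Psmb9 at chr20:4668750-4669049 on the plus strand. The Psmb7 window lies at chr3:42827421-42827720 and that of Psmb10 at chr19:50743243-50743542, both on the minus strand. The Psmb5 window lies at chr15:32047330-32047629 and that of Psmb8 at chr20:4656982-4657281, both on the minus strand. Each window is printed in the direction of its gene.
Psmb6: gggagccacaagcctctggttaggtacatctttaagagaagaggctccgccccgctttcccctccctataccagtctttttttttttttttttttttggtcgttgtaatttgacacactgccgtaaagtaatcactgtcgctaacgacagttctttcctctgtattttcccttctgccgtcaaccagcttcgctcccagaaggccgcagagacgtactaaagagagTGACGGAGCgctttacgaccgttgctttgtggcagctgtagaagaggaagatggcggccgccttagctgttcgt
Psmb9: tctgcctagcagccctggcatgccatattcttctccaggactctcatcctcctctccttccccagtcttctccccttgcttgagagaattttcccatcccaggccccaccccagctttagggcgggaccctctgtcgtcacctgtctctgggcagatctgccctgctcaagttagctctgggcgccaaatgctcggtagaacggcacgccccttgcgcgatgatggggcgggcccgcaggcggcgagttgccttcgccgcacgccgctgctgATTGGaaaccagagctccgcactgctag
Psmb7: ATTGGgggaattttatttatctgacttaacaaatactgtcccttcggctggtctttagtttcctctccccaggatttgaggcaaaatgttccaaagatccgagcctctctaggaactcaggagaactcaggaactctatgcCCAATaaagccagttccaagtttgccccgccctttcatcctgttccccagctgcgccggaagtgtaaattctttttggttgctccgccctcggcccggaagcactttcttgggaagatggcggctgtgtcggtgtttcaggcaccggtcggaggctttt
Psmb10: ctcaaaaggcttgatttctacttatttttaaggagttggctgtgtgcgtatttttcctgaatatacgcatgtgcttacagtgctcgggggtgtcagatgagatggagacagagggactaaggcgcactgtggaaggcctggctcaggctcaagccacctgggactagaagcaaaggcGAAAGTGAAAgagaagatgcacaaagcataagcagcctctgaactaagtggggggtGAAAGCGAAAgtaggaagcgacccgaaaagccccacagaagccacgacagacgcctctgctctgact
Psmb5: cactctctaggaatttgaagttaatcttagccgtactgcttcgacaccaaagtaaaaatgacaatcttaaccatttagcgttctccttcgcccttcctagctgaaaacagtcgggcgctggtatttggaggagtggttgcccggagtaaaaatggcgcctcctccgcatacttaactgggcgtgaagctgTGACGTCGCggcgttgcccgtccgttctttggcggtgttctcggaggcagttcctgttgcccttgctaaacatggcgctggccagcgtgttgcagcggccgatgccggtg
Psmb8: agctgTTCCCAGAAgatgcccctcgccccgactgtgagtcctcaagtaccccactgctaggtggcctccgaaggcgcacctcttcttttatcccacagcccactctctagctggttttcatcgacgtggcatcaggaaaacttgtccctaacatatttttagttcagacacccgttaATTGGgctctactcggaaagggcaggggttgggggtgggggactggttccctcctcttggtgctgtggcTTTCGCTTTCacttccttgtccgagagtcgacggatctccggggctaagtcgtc

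The interferon response letters stood in the windows of 3 of the 5 immunoproteasome genes, Psmb8, Psmb10 and Psme2, in 3 of the 30 core and cap genes with a window, and in 3.92% of all 33469 windows. Psmb10 held them at -73 and at -17 relative to the gene start, and Psmb8 held them at -4 on the reverse strand. The gamma-activated letters stood at -245 in Psmb8, in 3 of the 30 core and cap genes, and in 8.87% of all windows. The antioxidant response letters stood at -60 in Psmb5 and at -24 in Psmb6. They stood in 7 of the 30 core and cap genes, in 0 of the 5 immunoproteasome genes, and in 12.1% of all windows. CCAAT was found in 16 of the 30 core and cap genes, among them Psmb7, in 2 of the 5 immunoproteasome genes, Psmb8 and Psmb9, and in 37.5% of all windows. The window of Psmb9 held none of the first 3 motifs. It overlaps by 44 bases with the window of Tap1, a subunit of the peptide transporter of antigen presentation, which is read in the opposite direction. These matches describe letters and are not measured binding sites.

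Values are the background-subtracted intensity of a probe divided by the median of its array, given as log2. A gene was read from its probe to a RefSeq transcript with the highest mean level, and 41 of the 42 probes read in this way were well above background, as marked by the scanner software, on all 8 arrays. The exception was Psme4, with 6 arrays. Groups were compared with limma over every probe that stood well above background in duplicate in 1 or more groups, and a gene was called when its Benjamini-Hochberg adjusted p was under 0.05.

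Naïve and sham arrays shared 1 slide, scan and extraction protocol. Surviving and dying arrays shared another, and in every comparison with sham the slide cannot be told apart from the injury. Between 20191 and 29345 probes per array were well above background. Of the 10 pyramidal neuron markers fixed for a check of the label, 8 were found on the array. Their summed signal over the array median was 6516 to 9247 in naïve and 10647 to 12606 in sham neurons. It was 7213 to 7470 in surviving and 4438 to 4869 in dying neurons. Nrgn, the brightest marker, weighed most in each sum. Taken singly, 2 of the 8 were called lower in dying neurons against sham and 0 higher. Both dying arrays lay below both sham arrays for 5 and above for 1, Map2. The groups overlapped for 2, among them Grin1, with means of 10.54 in dying and 10.56 in sham neurons. The 6 oligodendrocyte markers summed to 1117 to 1321 in naïve, to 1763 to 1852 in sham, to 167 to 197 in surviving and to 183 to 237 in dying neurons. The median RefSeq probe differed from sham by -0.33 in surviving and by -0.80 in dying neurons on the log2 scale, and in 5 other scalings of the same signals this median ran from -0.52 to 0.65 and from -0.64 to 0.21. Differences from sham are therefore given beside these medians.

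The question of the first comparison was how proteasome genes in dying neurons stood against sham neurons. The immunoproteasome genes Psmb8 and Psmb9 were higher in dying neurons, and 14 of the 42 genes were lower, among them Psmd6, Psmb7 and Psma3l. Of the 33 core and cap genes, 13 were called lower and 0 higher. These counts stand beside 32.2% of the RefSeq probes tested and 38.6% of those well above background on every array that were called lower, so the share of members called lower was close to that of the array. Psmb7, the trypsin-like subunit, had a 15.7-fold lower signal, and its log2 difference ran from -3.97 with the median of the array to -2.85 after quantile normalization.

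Psmb8, the immunoproteasome subunit that replaces Psmb5, had log2 values of 0.84 and 0.60 on the naïve arrays, 1.72 and 0.65 on the sham arrays, 2.84 and 2.89 on the surviving arrays and 3.70 and 4.01 on the dying arrays. The 4 arrays of injured rats lay above the 4 others, and both dying arrays lay above both surviving arrays. The dying neurons exceeded sham by 2.67 ± 0.49 (SE, n = 2 against 2) on the log2 scale, 6.38-fold, with an adjusted p of 0.00525 in limma, and by up to 3.68 under the other scalings. With normexp background correction the difference was 1.43 and Psmb8 was not called by limma (adjusted p 0.521). Psmb9, which replaces Psmb6, had values of 3.02 and 4.07 on the naïve arrays, 3.97 and 4.65 on the sham arrays, 5.83 and 5.79 on the surviving arrays and 6.97 and 6.29 on the dying arrays. Its groups followed the same order without overlap between sham, surviving and dying neurons. The difference between dying neurons and sham was 2.32 ± 0.54 (SE), 5.0-fold, with an adjusted p of 0.0115, and ran to 3.44 under the other scalings. With normexp background correction it was 1.97 and Psmb9 was not called by limma (adjusted p 0.519). Psmb8 kept its call without any 1 of the 4 arrays compared, and the call of Psmb9 was lost without dying replicate 1 (adjusted p 0.0532) and without sham replicate 1 (adjusted p 0.0981).

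The 3 other immunoproteasome genes were not called with the median of the array. Of these, Psmb10 and Psme1 were called higher in dying neurons under 4 of 6 scalings, all but the median of the array and that of the RefSeq probes. Psmb10, which replaces Psmb7, had values of 8.15 and 8.58 on the naïve arrays, 8.71 and 8.52 on the sham arrays, 8.46 and 8.79 on the surviving arrays and 9.71 and 8.82 on the dying arrays. Both dying arrays lay above both sham arrays, and the difference of 0.65 ± 0.48 (SE) had an adjusted p of 0.291. Over the 6 scalings it ran from 0.65 to 1.65, and without single arrays from 0.20 to 1.09. The activator subunit Psme1 had values of 5.12 and 4.30 on the sham arrays, 4.90 and 4.92 on the surviving arrays and 5.59 and 5.09 on the dying arrays, and both injured groups overlapped with sham. The difference between dying neurons and sham was 0.63 and ran to 1.84 after quantile normalization, and from 0.22 to 1.03 without single arrays. Its partner Psme2 had values of 5.31 and 5.08 on the sham arrays, 4.99 and 4.15 on the surviving arrays and 3.85 and 4.72 on the dying arrays. The dying arrays lay below sham, with a difference of -0.91 ± 0.56 on the log2 scale (adjusted p 0.205 in limma). This difference turned to 0.25 after quantile normalization and ran from -1.35 to -0.47 without single arrays. The 2 calls among 5 genes compare with 13.3% of the RefSeq probes tested called higher, and with 3.68% of the 9451 RefSeq probes that passed the background mark on all 8 arrays, as all 5 genes were. The median difference of the 5 genes was 0.65.

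**Figure D1:**
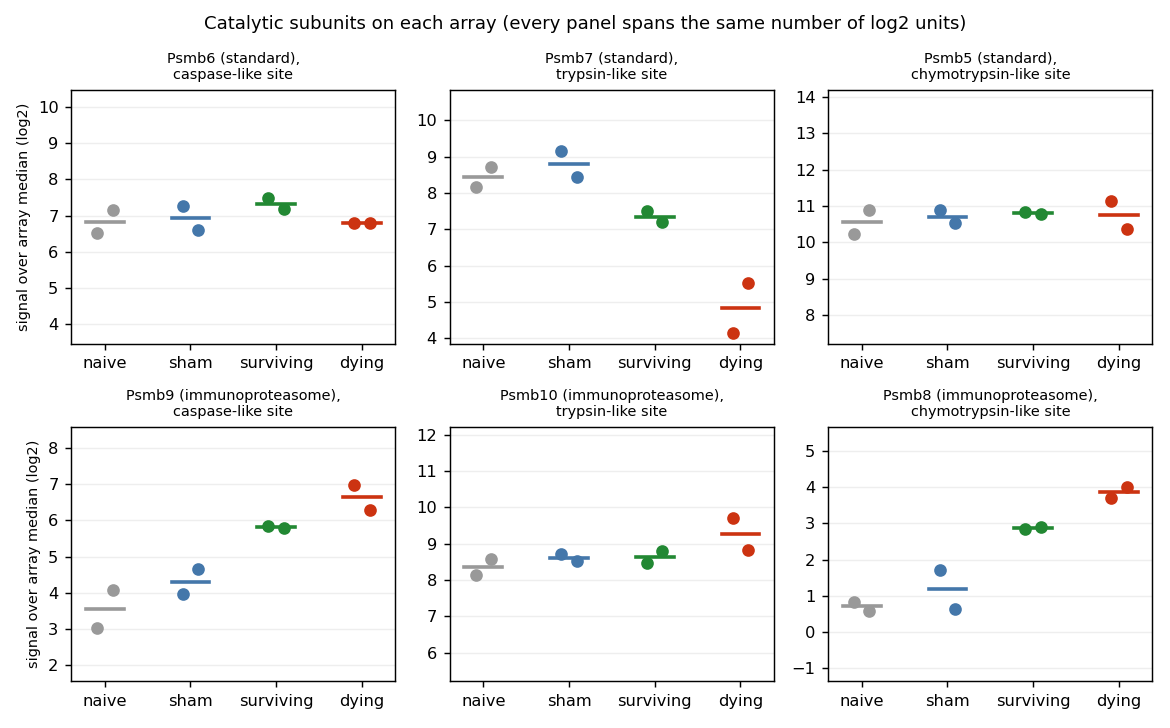
Signal over the array median (log2) of the 3 standard catalytic subunits (upper row) and of the immunoproteasome subunits that replace them (lower row), 1 point per array and a line at the mean of each group. With this scaling, Psmb8 and Psmb9 lie higher in surviving and dying neurons than in sham, Psmb7 lies lower, and the dying arrays of Psmb5 and Psmb6 overlap with sham.

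In dying neurons 7 microglial markers were higher along with Psmb8 and Psmb9. Of 14 markers of microglia and macrophages, 13 were on the array and 11 could be tested against sham in dying neurons, of which 7 were called higher, 0 lower and 4 not. These calls stand beside 13.3% of the RefSeq probes tested and 3.68% of those well above background on all 8 arrays that were called higher. Those called were C1qa, C1qb, C1qc, Tyrobp, Cd68, Trem2 and Cd74, and the lysosomal marker Cd68 was higher by 3.61 ± 0.55 (SE, adjusted p 0.0031). Under the other scalings 7 or 8 of the 11 were called higher in dying neurons. With normexp background correction 0 of the 11 were called there by limma. The summed signal of the 13 markers was 162 to 348 in naïve, 294 to 307 in sham, 385 to 444 in surviving and 1344 to 2676 in dying neurons. In surviving neurons 0 of the 12 markers tested were called against sham, and under other scalings 0 to 4 were called higher. Of the 12, 7 lay above sham without overlap on the surviving arrays and 1 below, with a median difference of 0.66. Among the 12, Itgam and Cx3cr1 were not well above background in sham and entered the test only through injured neurons. Itgam, with surviving values of 1.40 and -0.07, is 1 of the 7, and its place there is not counted as a result. Cd68, Tyrobp and Cd74 were among the 7, with differences of 1.79, 1.34 and 1.85. The 1 below was Aif1, with a difference of -1.59 ± 0.49 (SE, adjusted p 0.0574), which overlapped with sham in dying neurons. The microglial receptor Csf1r had values of 2.31 and 1.40 in sham and 1.18 and 1.86 in dying neurons, and Ptprc was not well above background in sham or dying neurons. Of 6 endothelial markers on the array, 4 could be tested against sham in dying neurons. Vwf was called higher, by 1.94 ± 0.51 (SE), 0 were called lower and 3 were not called. Cdh5, among the 4, was not well above background in sham. The part of these cells in the Psmb8 and Psmb9 results was not tested.

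**Figure D2:**
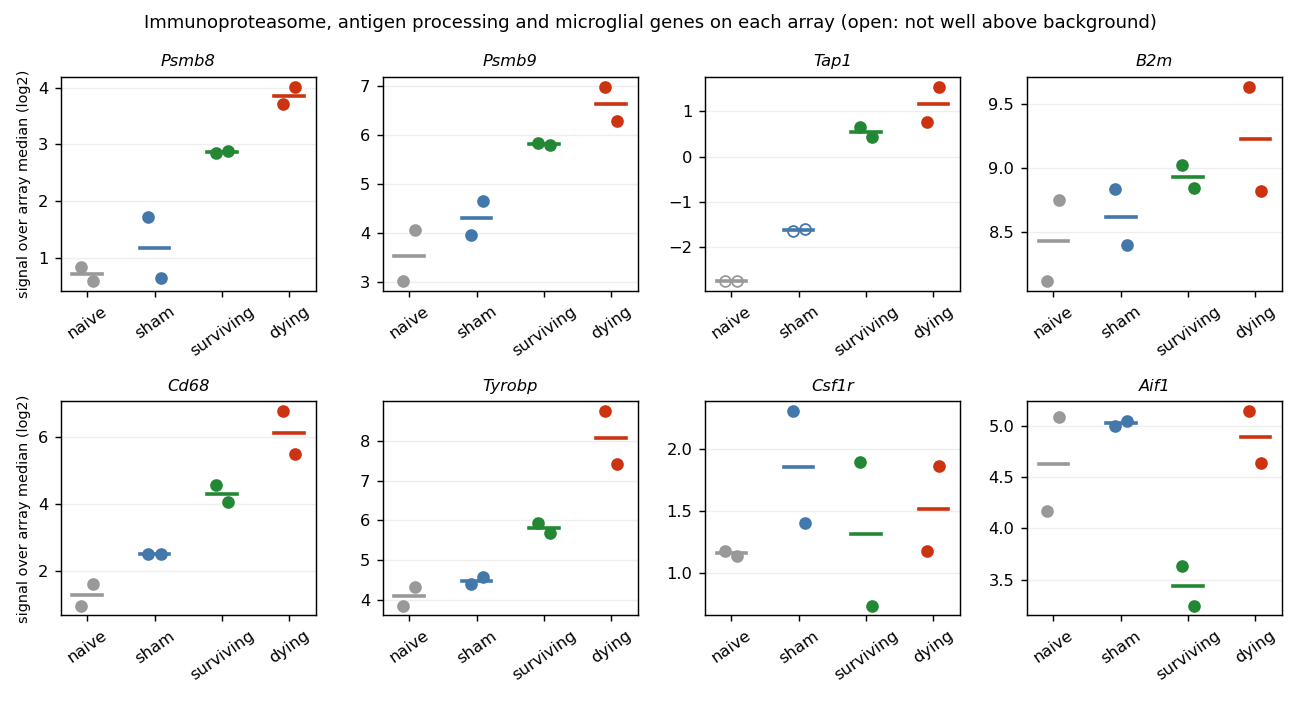
Signal over the array median (log2) of Psmb8, Psmb9, Tap1 and B2m (upper row) and of 4 microglial markers (lower row), 1 point per array and a line at the group mean. Open points mark groups in which no array was well above background. Cd68 and Tyrobp are highest in dying neurons, as Psmb8 and Psmb9 are, while Csf1r and Aif1 overlap with sham there.

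Among the standard catalytic subunits, Psmb7 had values of 8.16 and 8.72 on the naïve arrays, 9.15 and 8.44 on the sham arrays, 7.49 and 7.20 on the surviving arrays and 4.13 and 5.52 on the dying arrays. Each dying array lay below every other array, and the difference from sham was -3.97 ± 0.58 (SE, adjusted p 0.00265). Psmb5, the chymotrypsin-like subunit, had values of 10.22 and 10.89 on the naïve arrays, 10.90 and 10.52 on the sham arrays, 10.84 and 10.78 on the surviving arrays and 11.14 and 10.37 on the dying arrays. Its dying and sham arrays overlapped, and the difference was 0.05 ± 0.48. Scaled to the median of the probes above background on all 8 arrays it was 1.05, and the gene was called higher. Psmb6, the caspase-like subunit, had values of 6.51 and 7.16 on the naïve arrays, 7.27 and 6.59 on the sham arrays, 7.48 and 7.17 on the surviving arrays and 6.80 and 6.78 on the dying arrays. The groups overlapped here too, with a difference of -0.14 ± 0.47, whose sign turns under 5 other scalings. After quantile normalization it was 1.09, with an adjusted p of 0.0395, and the gene was called higher.

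The log2 ratio of an immunoproteasome subunit to the standard subunit it replaces, taken within each array, is not changed by a scaling with 1 constant per array. From sham to dying neurons the mean of this ratio was higher by 2.63 for Psmb8 over Psmb5, by 2.46 for Psmb9 over Psmb6 and by 4.62 for Psmb10 over Psmb7. Quantile normalization, which shifts probes by their level, gave 2.52, 2.35 and 4.49, and normexp background correction 1.88, 2.64 and 4.18. From sham to surviving neurons the ratios differed by 1.58, 1.10 and 1.46, and normexp gave 0.32 for Psmb8 over Psmb5. The ratio of Psmb10 to Psmb7 moved mostly with Psmb7. With the median of the array, Psmb7 differed from sham by -3.97 in dying and -1.45 in surviving neurons, and Psmb10 by 0.65 and 0.01. In each of the 3 pairs both dying arrays lay above both surviving arrays, which lay above both sham arrays, while sham and naïve arrays overlapped. With 2 arrays against 2, an exact permutation test cannot give a two-sided p under 0.333.

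The core α subunits form the outer rings and the gate. Of the 7, 4 were called lower in dying neurons and 0 higher. Called lower were 32.2% of the RefSeq probes tested and 38.6% of those well above background on all 8 arrays. Both dying arrays lay below both sham arrays for all 7, against 50.9% of the RefSeq probes tested and 6059 of the 9451 brighter ones. Psma2 had values of 7.72 and 7.39 on the sham arrays, 4.88 and 5.39 on the surviving arrays and 4.04 and 4.95 on the dying arrays. Both injured groups lay below sham, and dying and surviving arrays overlapped. The difference between dying neurons and sham was -3.06 ± 0.51 (SE, adjusted p 0.00375). Psma3 differed from sham by -2.33 and Psma1 by -2.06, and Psma6 by -1.32. Psma6 was called under none of the 5 other scalings, and its difference ran from -1.59 to -1.06 without single arrays. Psma4, Psma5 and Psma7 were not called, with differences of -0.89, -0.29 and -1.04. Psma3l, measured by a probe to a sequence outside RefSeq, had values of 7.55 and 7.01 in sham and 4.33 and 4.67 in dying neurons, a difference of -2.78 ± 0.44 (SE, adjusted p 0.00337). Psma3l and Psma3 are near copies, and their probes may share transcripts.

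Of the 7 standard core β subunits, Psmb7 and Psmb1 were called lower, the latter with a difference of -1.92 ± 0.48 (SE, adjusted p 0.0146). The other 5 were not called, with differences of -0.77 for Psmb4, -0.68 for Psmb2, -0.14 for Psmb6, 0.05 for Psmb5 and 0.10 for Psmb3. The median over the 7 was -0.68, against -1.32 over the α subunits and -0.80 over all RefSeq probes tested.

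Of the 6 ATPases that unfold the substrate, Psmc4 and Psmc6 were called lower. Psmc4 was called under none of the 5 other scalings, and its difference ran from -1.84 to -1.25 without single arrays. Psmc6 had values of 8.92 and 8.57 on the sham arrays, 6.65 and 5.94 on the surviving arrays and 6.78 and 6.42 on the dying arrays, a difference of -2.15 ± 0.46 (SE, adjusted p 0.00882) between dying neurons and sham. Psmc1 differed by -0.09 and overlapped with sham, and Psmc2, Psmc3 and Psmc5, although lower on both dying arrays, were not called. The dying arrays of Psmc3 stood apart, at 5.91 and 8.19.

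Of the 13 cap genes that are not ATPases, 5 were called lower and 0 higher, a share close to the 38.6% of the brighter RefSeq probes. Psmd6, a subunit of the lid, had values of 6.25 and 6.10 on the sham arrays, 3.55 and 3.89 on the surviving arrays and 2.56 and 2.81 on the dying arrays. The 3 groups did not overlap, and the difference between dying neurons and sham was -3.49 ± 0.45 (SE, adjusted p 0.00193), 11.2-fold. Psmd7, the lid subunit that pairs with the deubiquitinating enzyme of the cap, had values of 8.85 and 8.86 on the sham arrays, 7.05 and 7.24 on the surviving arrays and 6.31 and 6.73 on the dying arrays, again without overlap. Its difference was -2.33 ± 0.44 (SE, adjusted p 0.00572). Psmd13 differed from sham by -2.53, Psmd2, a large scaffold of the cap base, by -2.42, and Psmd5, an assembly chaperone of the base, by -2.22. The dying arrays of Psmd2 lay apart, at 2.85 and 4.76, and with 1 array left out its difference ran from -3.37 to -1.46. The calls of Psmd2 and Psmd13 were lost without dying replicate 1 and without either sham array. Without any 1 of the 4 arrays compared, Psmb8, Psma2, Psma3l, Psmb7 and Psmd6 were the genes that kept their call each time. The ubiquitin receptor Psmd4 had values of 9.81 and 9.47 in sham and 9.55 and 9.61 in dying neurons, and these groups overlapped. Psmd9, another assembly chaperone, was the only core or cap gene whose dying arrays both lay above sham with this scaling, at 8.28 and 7.64 against 7.37 and 6.97, and the difference of 0.79 ± 0.49 had an adjusted p of 0.21. It was called higher under 4 of the 6 scalings, with a difference of up to 1.94.

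**Figure D3:**
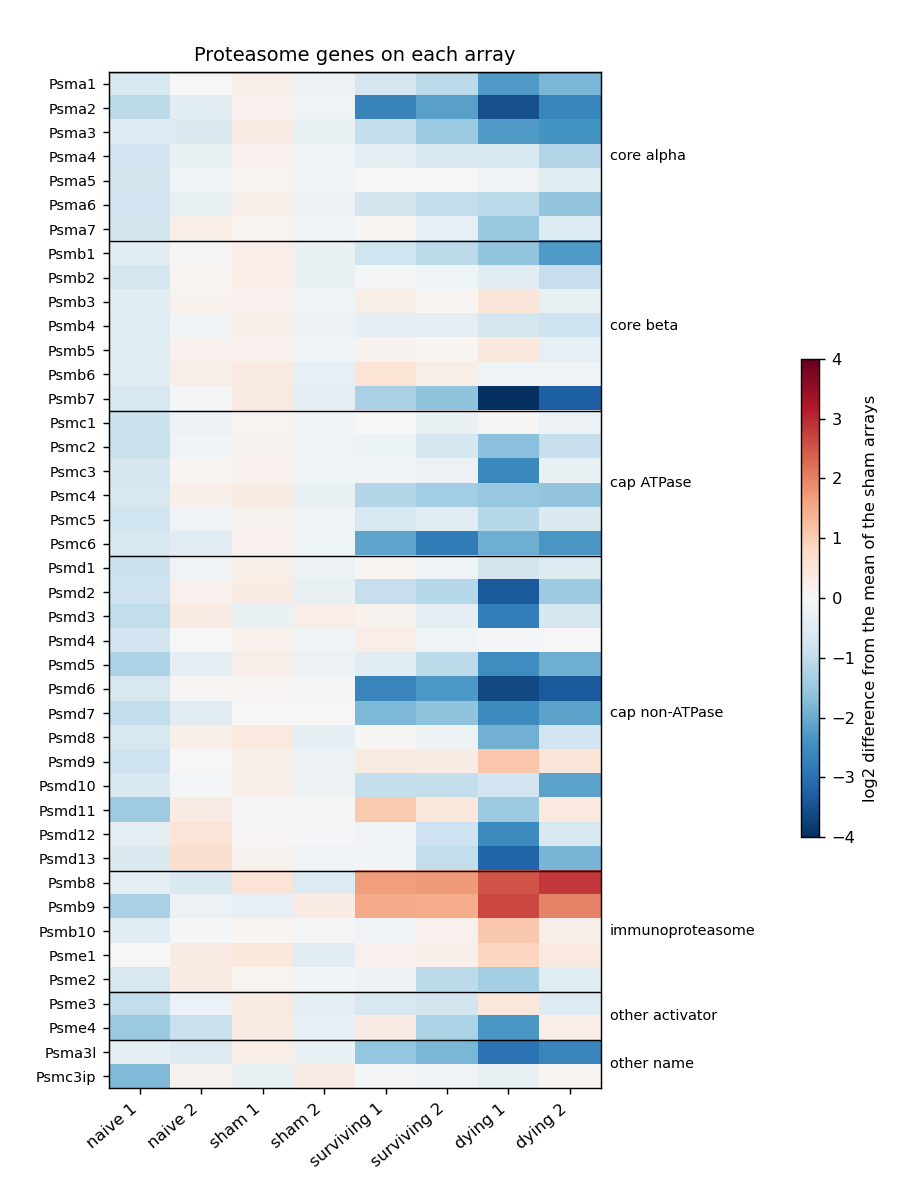
Heat map of the log2 difference of each array from the mean of the sham arrays, for the 42 genes in their groups (rows) and the 8 arrays (columns), with blue below and red above sham. Psmb7 and Psmd6 are dark blue on both dying arrays, and the deepest red fields are those of Psmb8 and Psmb9 in injured rats.

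The share of core and cap genes called lower in dying neurons was close to that of the brighter RefSeq probes. Called lower were 13 of 33 of these genes, 32.2% of the RefSeq probes tested and 38.6% of the RefSeq probes that passed the background mark on all 8 arrays. The median difference of the 33 genes was -1.34, against -0.80 and -1.14 for those sets of RefSeq probes. Both dying arrays lay below both sham arrays for 26 of the 33 genes and above them for 1, against 50.9% and 25.5% of the RefSeq probes tested. Of the 9451 brighter RefSeq probes, 6059 lay below without overlap. The differences were larger among the dimmer members. With the genes split at their median level of 7.67, averaged over all 8 arrays, the 16 at or above it had a median difference of -0.81 with 3 called lower, and the 17 below it had a median of -1.92 with 10 called lower. RefSeq probes at or above and below the same level had medians of -0.90 and -1.19, with 33.9% and 39.4% called lower, against 18.8% and 58.8% of these genes. The average includes the dying arrays, which lowers the level of a gene that fell.

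The counts of calls depend on the scaling. With the median of the array, 14 of the 42 genes were called lower and 2 higher, and with the other scalings of the same signals the split ran from 12 lower and 2 higher to 9 lower and 9 higher, with 7 lower and 6 higher after quantile normalization. Under all 6 scalings, Psmb8 and Psmb9 were called higher and Psma2, Psma3, Psma3l, Psmb7, Psmd6 and Psmd7 lower. For 14 genes the sign of the difference itself varied between scalings. With normexp background correction of the mean signals, in contrast, 0 of the 42 genes were called by limma, with 2 at an unadjusted p under 0.05.

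Probes of the same gene differed in size. For Psmd1, a large subunit of the cap base, the brighter probe differed from sham by -0.64 in dying neurons and the dimmer by -2.76, and the dimmer was called. The probes of Psma6 gave -1.32 and -2.73, and those of Psmc4 gave -1.55 and -2.29. The 3 probes of Psmd7 gave -2.33, -1.42 and -3.17, and the last was well above background on 7 arrays. All probes of a gene that were tested against sham had the same sign in dying neurons. The brightest probe of Psmd2 was left out because both of its dying spots were marked as non-uniform.

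**Figure D4:**
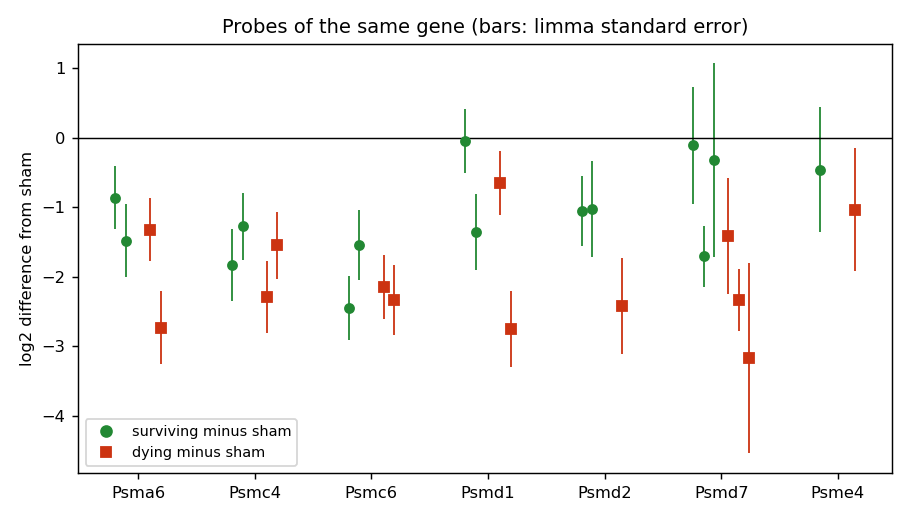
Log2 difference from sham, with limma's standard error, of each tested probe of the 7 genes with more than 1 probe, in surviving (circles) and dying (squares) neurons. The probes of Psmd1, Psma6 and Psmd7 lie apart by 1.40 to 2.11 in dying neurons.

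The second comparison asked how far surviving neurons, captured next to the dying ones, shared these differences from sham. Of the 42 genes, 5 were called lower and 0 higher. The 5 were Psmd6, Psmc6, Psma2, Psmd7 and Psma3l, all called lower in dying neurons too, in a comparison that uses the same sham arrays. Psmd6 differed by -2.46 ± 0.45 (SE, adjusted p 0.0139), Psmc6 by -2.45 ± 0.46 (adjusted p 0.0149) and Psma2 by -2.42 ± 0.51 (adjusted p 0.0202). Psmd7 and Psma3l differed by -1.71 and -1.68. The other 2 probes of Psmd7 gave -0.10 and -0.32 and overlapped with sham, and the mean over its probes was not called.

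Called lower were 4 of the 33 core and cap genes, against 9.83% of the RefSeq probes tested and 12.9% of the RefSeq probes that passed the background mark on all 8 arrays. The share was close to that of the array, and the median of the 33 genes was -0.48 against -0.33 and -0.69. Both surviving arrays lay below both sham arrays for 18 of these genes and above them for 2, Psmd9 and Psmd11, against 45.8% and 29.1% of the RefSeq probes tested. Of the 9451 RefSeq probes well above background on all 8 arrays, 5939 lay below without overlap and 1168 above. With any 1 of the 4 arrays left out, the calls of the 5 genes were lost, as were most calls of RefSeq probes. The difference of Psmd6 then ran from -2.63 to -2.29, that of Psmc6 from -2.80 to -2.10 and that of Psma2 from -2.68 to -2.17. Psmc6 was the only gene called under all 6 scalings. The split was 5 lower and 0 higher with the median of the array, 1 lower and 3 higher after quantile normalization, and 2 lower and 4 higher with the deposited series values and with the median of the probes above background on all 8 arrays. The 4 called higher in any scaling were Psmb6, Psmb8, Psmb9 and Psmd9, and for 27 of the 42 genes the sign varied between scalings.

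Psmb8 lay above sham by 1.68 ± 0.49 (SE) in surviving neurons, 3.21-fold, and its adjusted p of 0.0501 missed the threshold. Psmb9 lay above sham by 1.50 ± 0.54 with an adjusted p of 0.0859. The surviving arrays of both genes lay above the sham arrays without overlap. Called higher were 7.36% of the RefSeq probes tested and 1.05% of those well above background on all 8 arrays. With scaling to the 75th percentile the differences were 2.46 and 2.28 and both genes were called, as they were under 4 of the 6 scalings, and scaled to the median of the RefSeq probes they were 1.49 and 1.31 and neither was. Psmb10 differed from sham by 0.01 ± 0.48, and Psmb7 by -1.45 ± 0.58 with an adjusted p of 0.114.

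**Figure D5:**
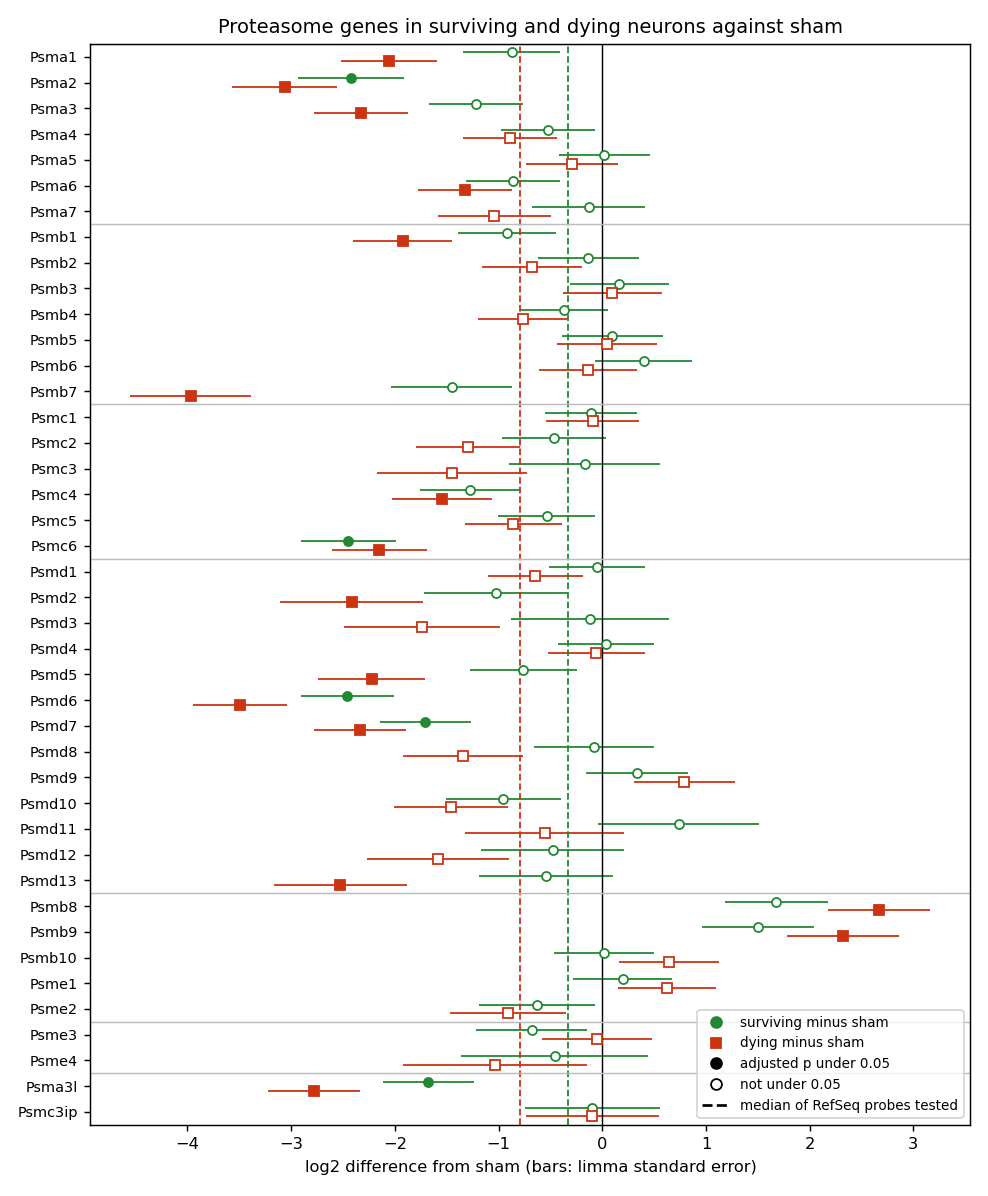
Log2 difference from sham of the 42 genes, with limma's standard error, in surviving (circles) and dying (squares) neurons. Filled symbols had an adjusted p under 0.05, and dashed lines mark the median of the RefSeq probes tested, -0.33 in surviving and -0.80 in dying neurons.

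Surviving and dying neurons, which lay on the same slide, were then compared directly. By limma 0 of the 42 genes were called, as were 0% of the RefSeq probes tested, and 6 of the 42 genes and 2847 of the 16681 RefSeq probes had an unadjusted p under 0.05. The 6 were Psmb7, Psmd13, Psmd5, Psma1, Psma3l and Psma3, all higher in surviving neurons. Psmb7 was higher there by 2.52 ± 0.58 (SE, adjusted p 0.114), 5.74-fold. Psmd13 was higher by 1.99 ± 0.65 (adjusted p 0.152) and Psmd5 by 1.46 ± 0.52 (adjusted p 0.17). Without dying replicate 2, 6 genes were called, all higher in surviving neurons, beside 14.3% of the RefSeq probes. That fit takes the spread from the other groups and assumes that the lone dying array varies as they do.

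Both surviving arrays lay above both dying arrays for 23 of the 42 genes, against 36.4% of the RefSeq probes tested. They lay below for 6, against 11.6%. Among the 9451 RefSeq probes well above background on all 8 arrays, 3972 lay above and 1155 below. Of the 6, 4 were immunoproteasome genes, Psmb8, Psmb9, Psmb10 and Psme1, with differences of -0.99 ± 0.50, -0.82 ± 0.54, -0.63 ± 0.49 and -0.43 ± 0.48. Without single arrays Psmb8 ran from -1.15 to -0.84, Psmb9 from -1.16 to -0.48, Psmb10 from -1.08 to -0.19 and Psme1 from -0.68 to -0.18. With normexp background correction all 4 turned sign, to 0.15, 0.54, 0.88 and 0.92. The others were Psme3, the nuclear activator related to Psme1, and Psmd9, which turned sign with normexp too. Of the 33 core and cap genes, 22 lay above without overlap and 1 below. Their median difference was 0.63 against 0.37 for all RefSeq probes tested, and that of the 5 immunoproteasome genes was -0.63. The members differed between the arrays of a pair by a median of 0.26 in surviving and 0.61 in dying neurons, and the widest gap was that of Psme4 in dying neurons, 2.61.

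Sham and naïve neurons gave the background of the operation. By limma 0 of the 42 genes were called, with 0 at an unadjusted p under 0.05, and 0% of the RefSeq probes tested were called. Both sham arrays lay above both naïve arrays for 11 genes and below for 0, against 39.9% and 3.68% of the RefSeq probes tested. Among the 9451 RefSeq probes well above background on all 8 arrays, 4114 lay above and 136 below. The direction depends on the scaling. With the median of the array 31 core and cap genes had a higher mean in sham and 2 a lower one, and after quantile normalization 12 and 21. The smallest p belonged to Psmd5, which was higher in sham by 0.83 ± 0.50 (SE, adjusted p 0.882). The median of the 42 genes was 0.37 and that of the RefSeq probes 0.41.

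Genes that work with the proteasome were read in the same way. Of 16 such genes read on the array outside antigen processing, 13 were well above background on every sham and dying array, and 8 of these were called lower in dying neurons and 0 higher. On every sham and surviving array 15 were well above background, and 4 of these were called lower in surviving neurons and 0 higher. Called lower of the RefSeq probes well above background on all 8 arrays were 38.6% and 12.9%. Under the 6 scalings the count called lower ran from 2 to 8 in dying and from 1 to 5 in surviving neurons. Rad23b and Usp14 were called lower in dying neurons under each of the 6. With normexp background correction 0 of the 16 genes were called by limma in dying or surviving neurons against sham. The assembly chaperones Psmg1 and Psmg2 differed from sham by -1.50 and -1.82 in dying neurons. Of the 3 cap partners, the ubiquitin receptor Adrm1 was not well above background in dying neurons and was at least 14.5-fold lower than in sham, counted against the lowest signal that was well above background. The deubiquitinating enzymes Usp14 and Uchl5 differed by -2.30 and -1.76. Uba1, the main enzyme that activates ubiquitin, differed by -3.48 ± 0.72 (SE, adjusted p 0.00792), and the shuttle factor Rad23b by -3.12 ± 0.54 (adjusted p 0.00439). Ubqln2, another shuttle factor, was not well above background in sham, entered the test only through the injured groups and was at least 3.72-fold higher in dying and at least 3.16-fold higher in surviving ones. Of the transcription factors Nfe2l1 and Nfe2l2, which are known to drive proteasome genes, Nfe2l1 differed from sham by -1.53 in dying neurons. Nfe2l2 lay below sham there, at -0.13 and 1.74 against 3.31 and 2.40. It was well above background on only 1 dying array, so no exact difference is given. The ubiquitin genes Ubb and Rps27a were not called, with differences of -0.06 and -0.37.

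Of 7 genes of antigen processing and interferon signalling, Tap1 and Irf1 were not well above background in naïve or sham neurons. They entered the test only through the injured groups, where they are high, and their calls in both comparisons with sham are not counted. The other 5 were called in neither with the median of the array, and under 4 of the 6 scalings tapasin (Tapbp) was called higher in both injured groups, Tap2 in surviving neurons and B2m in dying neurons. Tap2 was called higher in dying neurons under 3 scalings, B2m in surviving neurons under 2 and Ifngr2 in surviving neurons under 1. With normexp background correction 0 of the 7 genes were called in either comparison with sham. Tap1 had values of -1.64 and -1.59 in sham, where it was not well above background, 0.65 and 0.44 on the surviving arrays and 0.77 and 1.54 on the dying arrays. The injured groups lay above sham, at least 1.71-fold in surviving and at least 2.60-fold in dying neurons, and the dying arrays lay above the surviving arrays. Irf1, a transcription factor induced by interferon, was not well above background in sham and was at least 1.97-fold higher in surviving and at least 1.71-fold higher in dying neurons. Its surviving and dying arrays overlapped. The transporter subunit Tap2 differed from sham by 1.30 in surviving and 0.64 in dying neurons, Tapbp by 1.20 and 1.0, and the light chain B2m by 0.32 and 0.61. The interferon receptor chain Ifngr1 had sham values of 0.92 and -1.23 and was well above background on only 1 sham array. Its surviving and dying arrays lay between these values, and no exact difference is given. Ifngr2 differed from sham by 0.17 in surviving and -0.32 in dying neurons.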

How the data were processed

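RNA of laser-captured neurons was hybridised to single-colour Agilent rat arrays. Scans had been read by the authors in Agilent Feature Extraction (version 9.1.3.1 per the file headers), and its background-subtracted intensity values were deposited. The labels name 2 amplification kits and not which pool received which. The authors also deposited a table of signal values, found here to be the same intensity divided by 1 constant per array. Deposited marks of 0 or 1 gave spots well above background, saturated (0 here) or non-uniform. Precision is limited by 2 arrays per group.

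Spots marked non-uniform were dropped and repeated spots averaged. Values were divided by the median of their array, those under 0.01 set to 0.01, and log2 taken. All 8 arrays entered 1 limma fit with a mean for each of the 4 groups (limma 3.58.1, R 4.3.3), with Benjamini-Hochberg adjustment over all probes tested. The fit was tested on simulated data. The promoter windows came from RefSeq tables of build GRCr8.

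Named were the 3 standard catalytic and 5 immunoproteasome genes, every gene called, and per comparison and direction up to 5 genes with the smallest p among those well above background on all 4 arrays and without overlap. Some genes of the pathway lists are not reported here and were left out of their counts. Members, gene lists and tests were chosen with earlier results of these data known. Of the member probes, 37 had an accession in the reference table, and all 37 named the same gene. Alternatives were other scalings, background correction, filters, probe choice, the replicate block and leaving out each array. Whether replicate numbers pair the pools is not stated in the labels, and the main fit has no replicate block.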

Additional observations from a re-analysis of the deposited data

How the results depend on the processing

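Of 21 calls of single genes, 0 changed direction under any alternative, and 109 of 1022 recomputed single-gene results lost a call while 35 gained one. The count of members called was 16 in dying neurons against sham and 5 in surviving neurons against sham, and normexp background correction gave 0 and 0. With only the 4 arrays compared, 10 members were called in surviving neurons against sham. With the replicate block, 3 were called there, 14 in dying neurons against sham, and 0 in each of the other comparisons. Deviations of the same replicate number correlated with r of -0.19 to 0.07 over 15250 probes, and the -0.19 was that of surviving and dying pools. With 2 arrays per group this correlation cannot show whether pools of the same number share rats. Crossed pairing of surviving and dying pools, chosen after seeing the data, gave 0 calls. Leaving out each array in turn gave 0 to 0 calls in surviving neurons against sham, 5 to 20 in dying neurons against sham, with 5 without sham replicate 1 and 10 without sham replicate 2, and 0 to 6 in surviving against dying neurons, with 6 without dying replicate 2. Relative to the median RefSeq probe, the median of the core and cap genes was 0.26 in surviving against dying neurons, and 0.079 after quantile normalization, 1.46 with normexp, 0.42 with the filter on all 4 arrays, 0.49 without a filter, 0.53 with the mean over probes and 0.18 to 0.41 without single arrays. It was -0.15 in surviving neurons against sham, and -0.063, 0.39, 0.24 and 0.12 under the first 4 of these, with -0.29 to -0.10 without single arrays. It was -0.54 in dying neurons against sham, and -0.27 after quantile normalization, -1.10 with normexp, -0.25 with the filter on all 4 arrays, -0.74 with the mean over probes and -0.92 to -0.40 without single arrays. It was -0.08 in sham against naïve neurons, 0.49 with normexp and -0.11 to 0.057 without single arrays. For the immunoproteasome genes it was -1.01 in surviving against dying neurons, 0.28 with normexp and -1.29 to -0.48 without single arrays. It was 0.52 in surviving neurons against sham, and 0.84 after quantile normalization, 0.99 with normexp, 0.91 with the filter on all 4 arrays, 0.80 without a filter and 0.30 to 0.88 without single arrays. It was 1.44 in dying neurons against sham, and 1.84, 0.73 and 1.74 under the first 3 of these, with 0.88 to 1.80 without single arrays. The genes that turned sign were not called with the median of the array. In dying neurons against sham, Psmb6 stood at 0.59 with the 75th percentile, 0.66 with the series values, 1.09 after quantile normalization (adjusted p 0.0395, called higher), 0.015 with the RefSeq median, 0.87 with the median of probes above background on all 8 arrays (chosen after seeing the data) and -0.48 to 0.20 without single arrays. Psme2 stood at 0.25 after quantile normalization and 0.10 with the last-named median. Psmb5 stood at -0.45 with normexp, and at -0.34 to 0.43 without single arrays. In surviving against dying neurons, normexp gave 0.88 for Psmb10, 0.15 for Psmb8, 0.54 for Psmb9, 0.93 for Psmd9, 0.92 for Psme1 and 1.23 for Psme3. Psmb5 stood at -0.080 after quantile normalization, -0.30 with the RefSeq median and -0.33 to 0.43 without single arrays. Psme2 stood at -0.065 with the RefSeq median and -0.15 to 0.72 without single arrays. In surviving neurons against sham, Psme2 stood at 0.16 with the 75th percentile, 0.25 with the series values, 0.033 with normexp, 0.38 after quantile normalization and 0.35 with the median of probes above background on all 8 arrays. With the RefSeq median, Psmb10 stood at -0.18 and Psmb5 at -0.10. Without single arrays Psmb10 stood at -0.15 to 0.18, Psmb5 at -0.089 to 0.28 and Psme1 at -0.21 to 0.60. The cause of these differences was not tested.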
